A study of Mus musculus with 3 samples.

Results

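Gene expression in a culture of CD4 T cells polarised to the Th9 fate was compared with that in naive CD4 T cells on 1 Agilent 2-colour array, the RNA of the Th9 culture being labelled with Cy5 and that of the naive cells with Cy3. The values taken were those of the gene probes whose spots the scanner software called well above background in both channels, 18050 of the 39429 probes of the series. They gave a ratio for 10782 of the 19748 genes that the probes could be matched to. The study held 2 further arrays of the same layout, in which a Th2 culture and an induced regulatory T cell (iTreg) culture were set against naive cells. The mice were C57BL/6, 6 to 8 weeks old, and their splenic naive CD4 T cells were selected by surface markers with magnetic beads.

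The cultures were all stimulated for 3 days with antibodies to CD3e (bound to the plate) and CD28 (in solution), 10 µg/ml each, and differed in what was added. Th9 cells received mouse IL-2 at 0.2 ng/ml, mouse IL-4 at 1 ng/ml, human TGF-β1 at 2 ng/ml and an antibody against IFN-γ at 5 µg/ml. Th2 cells received IL-2 at 1 ng/ml, IL-4 at 5 ng/ml and anti-IFN-γ at 2 µg/ml, with no TGF-β1. The iTreg medium held IL-2 at 0.4 ng/ml, TGF-β1 at 5 ng/ml, and antibodies against IFN-γ and IL-4 at 5 µg/ml each. The naive cells were not stimulated, and no culture stimulated without polarising cytokines was among the samples, so stimulation and polarisation cannot be told apart in a ratio against naive. Nor can a dye effect be told apart from a difference between the cells, since Cy5 always carried the culture.

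Th9 cells are helper T cells named for the cytokine IL-9, which acts on mast cells, epithelium and other lymphocytes and is known from parasite defence, allergy and tumour immunity. IL-4, through STAT6, and TGF-β, through SMAD proteins, are needed together to induce them, and factors such as IRF4, BATF and the ETS protein PU.1 act at the Il9 gene. T-bet, BCL6, Id proteins and FOXP3 are known to hold the programme back.

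The promoter of Il9 is shown because these signals are known to meet there. In the RefSeq annotation of mouse assembly GRCm38.p6 the 250 bases before the gene's start lie at chr13:56482258-56482507 on the minus strand and motifs were searched in such windows on both strands. Capitals mark, from the 5′ end, a STAT6 element (TTC and GAA with any 4 bases between, from position -184 relative to the start) that overlaps a PU.1 core (GAGGAA, from -180), an AP-1 site (TGANTCA, from -140) that overlaps a SMAD element (CAGAC, from -135), and a κB site (GGG and TTTCC with any 2 bases between, from -54).
Il9: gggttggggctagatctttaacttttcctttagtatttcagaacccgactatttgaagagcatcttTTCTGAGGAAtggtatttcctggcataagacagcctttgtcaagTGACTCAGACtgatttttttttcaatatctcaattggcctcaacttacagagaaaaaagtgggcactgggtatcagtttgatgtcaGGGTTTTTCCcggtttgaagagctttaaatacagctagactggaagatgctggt
Among the same windows of 32851 RefSeq promoters, 5.85% held the STAT6 element, 23.3% the PU.1 core, 6.75% the AP-1 site, 42.2% the SMAD element and 1.41% the κB site. Not all motifs searched were marked. The NFAT core (GGAAAA), the cell cycle homology region (TTTGAA) and the CCAAT box (CCAAT) also occur in the Il9 window, on either strand. All these letters describe the window and are not evidence of binding.

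Il9 had the highest ratio of all genes measured on the array. Its spot read a raw signal of 92 over a background of 23 in the naive channel, against 12172 over 47 in the Th9 channel. After background correction and normalisation the log2 intensity was 6.89 in naive and 13.41 in Th9 cells, a log2 ratio of 6.52 ± 0.81 (here and below, ± is the scanner software's error of the spot, n = 1 array). The naive reading stood only just above background, and on the other 2 arrays the naive channel was not well above background at this probe, so the size of the ratio depends on how the background was treated; the software's own log ratio was 8.02 on the log2 scale. In the Th2 culture Il9 was at least 2.64 above naive on the log2 scale, and in the iTreg culture neither channel was above background. Compared between the Cy5 channels after quantile scaling of the mean intensities of the arrays, Il9 was 4.24 higher (log2) in Th9 than in Th2. No error was computed for this difference.

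The other defining genes of the label were also higher in the culture. Ahr, the ligand-activated aryl hydrocarbon receptor, read 7.87 in naive and 10.89 in Th9 cells (3.01 ± 0.38). Irf4, a transcription factor induced by antigen receptor signals, read 8.26 in naive and 11.82 in Th9 cells (3.56 ± 0.42). Ahr, but not Irf4, was higher than in the other cultures, where the log2 ratio was 0.34 in Th2 and 1.11 in iTreg for Ahr and 3.87 and 3.59 for Irf4. Of the T cell genes, Cd3e, Cd3d, Cd3g and Cd4 were well above background in both channels. By ratio Cd3e (-1.91 ± 0.27), Cd3g (-1.70 ± 0.26) and Cd3d (-1.11 ± 0.23) were lower, and Cd4 was within 2-fold (-0.47 ± 0.21). Under median centring all were within 2-fold (Cd3e -0.92, Cd3g -0.79, Cd3d 0.14 and Cd4 0.26). Cd8a was in neither, while Cd8b1, the other CD8 chain, was in both at a low level (raw signals of 409.5 in naive and 256.5 in Th9 cells). Of 16 B cell markers 8 were above background in neither channel, Cd79a and Ms4a1 among them, and Cd79b, Cd72, Cd22 and Fcmr were in both.

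**Figure D1:**
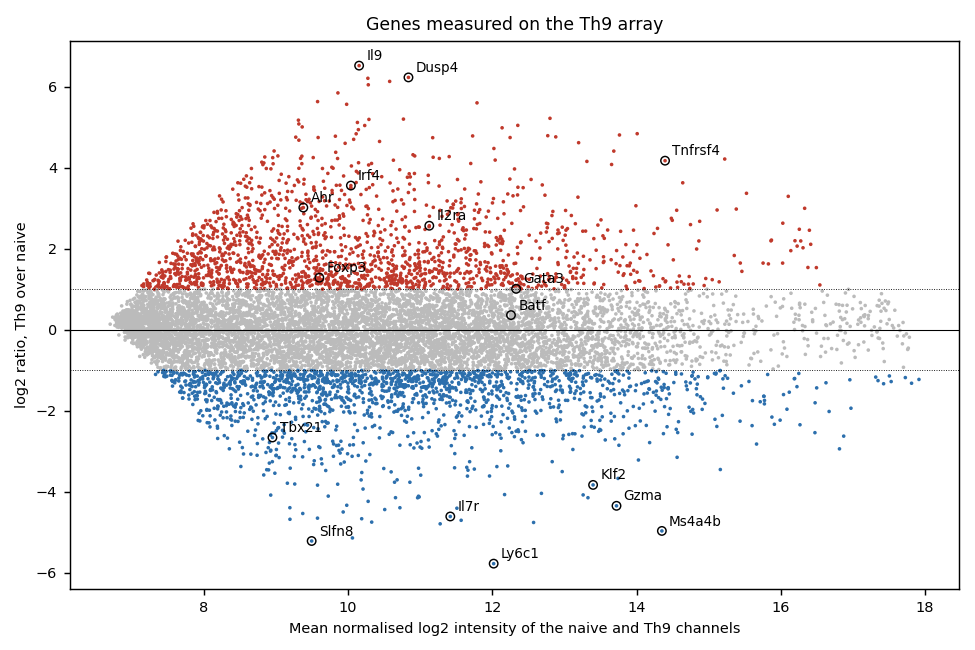
Log2 ratio of Th9 over naive (vertical) against the mean normalised log2 intensity of both channels (horizontal) for the 10782 genes measured on the Th9 array; red points are higher and blue points lower by 2-fold or more, dotted lines mark the 2-fold limits and open circles the labelled genes. Il9 lies at the top with a ratio of 6.52 and Ly6c1 at the bottom with -5.77.

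Across the array, 1673 genes (15.5% of those measured) were 2-fold or more higher in Th9 than in naive cells and 1684 (15.6%) lower by as much, so 31.1% passed the 2-fold rule in 1 direction or the other. The Th9 counts of the gene lists below are to be read beside these shares. With 1 array there is no spread between replicates and no test, and genes are called by size alone. Under median centring in place of the intensity-dependent (loess) normalisation the counts were 2313 and 1232, and the share of calls that were higher went from 49.8% to 65.2%. At least 4-fold differences were seen for 624 higher and 367 lower genes, and at least 16-fold for 69 and 31. A further 277 genes above background only in Th9 were higher by a bound of at least 2-fold, and 188 above background only in naive cells were lower by such a bound. The spots were dim on the whole, with a median raw signal of 89 in the naive channel and 97.5 in the Th9 channel, and no probe was saturated. Replicate spots of the 146 probes printed 10 times had a median SD of 0.0506 on the log2 scale, below the median scanner error of 0.223.

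After Il9 the highest ratios belonged to a mixed set. Dusp4, a nuclear phosphatase that switches off MAP kinases, had 6.22 ± 0.70. Mgarp, a mitochondrial protein, had 6.20 ± 0.72, and Asns, which makes asparagine, 6.13 ± 0.70. Egln3, a prolyl hydroxylase that marks HIF for degradation, had 6.04 ± 0.70, and Ak4, a mitochondrial adenylate kinase, 5.63 ± 0.74. The cytoskeletal Tubb6, the transglutaminase Tgm2, the glycogen phosphorylase Pygl, the prion protein gene Prnp, the hypoxia-responsive Ndrg1 and the cell cycle inhibitor Cdkn1a were also among the 20 highest, at 5.60, 5.20 (3.94 by another probe), 5.19, 5.11, 5.04 and 4.94. Among genes not above background in naive cells the highest bounds were those of AA467197 (at least 5.62), Pdgfa, a platelet-derived growth factor chain (at least 4.76), and Perp (at least 4.72).

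At the other end stood genes of the resting T cell and of the interferon response. Ly6c1, a surface glycoprotein of subsets of T cells, had -5.77 ± 0.61, -4.13 by another probe. The interferon-induced Slfn8 and Samd9l had -5.21 ± 0.65 and -5.14 ± 0.60. Ms4a4b, a membrane protein of resting T cells, had -4.97 ± 0.51. Rtp4, Ifi209 and Ifi214, all interferon-induced, were above background only in naive cells and lower in Th9 by at least 6.50, 6.06 and 5.13 on the log2 scale (bounds of -6.50, -6.06 and -5.13). Probes of the Ly6, Ifi200, Klra, Gzm and Gbp families share sequence with close relatives, and cross-hybridisation was not tested.

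**Figure D2:**
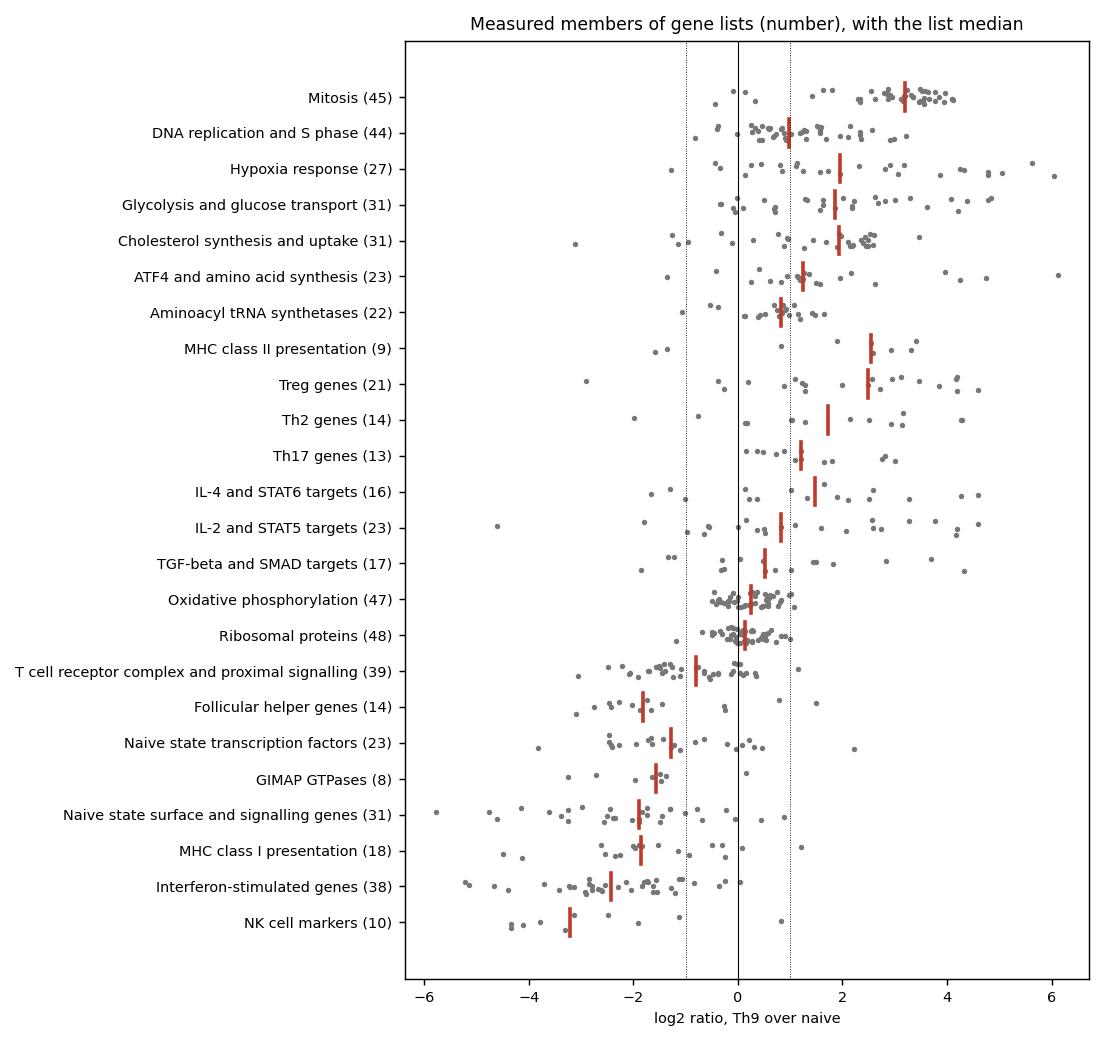
Log2 ratio of Th9 over naive for each measured member (grey points) of 24 gene lists, with the list median as a red bar and the number of measured members in brackets; dotted lines mark the 2-fold limits. Medians run from 3.20 for mitosis genes to -3.22 for NK cell markers.

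Of the 9 cytokines and chemokines listed for Th9 cells, 3 were measured and 2 of these were at least 2-fold higher, Il9 and Il3. Il3, a haematopoietic growth factor made by activated T cells, read 6.75 in naive and 8.19 in Th9 cells (1.44 ± 0.35), less than in Th2 (3.34). Il24 was within 2-fold (0.21 ± 0.27). Ccl17 was above background only in Th9, at least 0.82 higher, and Il21 only in naive cells, with a bound that left less than a 2-fold difference (-0.38). Il10, Il31, Ccl20 and Areg were not above background in either channel. 

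Among the 30 transcription factors listed for Th9 cells, 29 were measured, 14 were 2-fold or more higher and 4 lower by as much. Their median log2 ratio was 0.87, beside -0.01 over all genes measured. The other cultures had similar counts, 13 higher and 4 lower of 29 in Th2 (median 0.47) and 10 and 1 of 29 in iTreg (median 0.53). The largest ratios belonged to Bhlhe40, a basic helix-loop-helix repressor needed for cytokine production, which read 8.74 in naive and 13.06 in Th9 cells (4.32 ± 0.48). Nfil3, a basic leucine zipper factor induced by IL-4, read 9.27 in naive and 13.54 in Th9 cells (4.27 ± 0.47). Rbpj, the DNA-binding partner of Notch, read 9.15 in naive and 13.38 in Th9 cells (4.23 ± 0.46, 2.63 by another probe). In all 3, the Th9 reading was more than 16-fold above naive by the probe used.

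The AP-1 and IRF partners divided. Batf3 read 8.58 in naive and 12.35 in Th9 cells (3.78 ± 0.43), close to Th2 (3.69) and far above iTreg (0.33). Batf itself was within 2-fold (0.36 ± 0.21), between the ratio of 1.64 in Th2 and -0.69 in iTreg. Irf8, an IRF-family partner of ETS proteins, was higher (2.17 ± 0.29), and Irf1, which interferon induces, was lower (-2.14 ± 0.28). Fosl2 was higher (1.69 ± 0.27), while Junb stayed within 2-fold (-0.27 ± 0.21). Spi1, which encodes PU.1, was not above background in either channel, and its relative Etv5 was within 2-fold (-0.30 ± 0.21).

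Of the factors that carry the cytokine signals, Stat5a, which IL-2 activates, was higher (2.03 ± 0.28) and Stat5b within 2-fold (0.87 ± 0.22). Stat6, the IL-4 factor, was within 2-fold (-0.64 ± 0.21), as were the TGF-β factors Smad2 (-0.46 ± 0.21), Smad3 (-0.46 ± 0.21) and Smad4 (-0.47 ± 0.21, but 0.02 under median centring). Smad3 likewise turned to -0.09 under that centring, and the sign of these small ratios is therefore not settled. Gata3, the Th2 master regulator, lay at the 2-fold limit (1.01 ± 0.22; Th2 1.40, iTreg 0.53). Gfi1, Pparg, Hif1a and Relb also passed it, at 1.90, 1.31, 1.14 and 1.05. Pparg, a lipid-sensing nuclear receptor, was higher still in Th2 (3.34). Lower were Rela (-2.0 ± 0.27), Foxo1 (-1.28 ± 0.23) and Nfatc1 (-2.01 ± 0.28, -0.08 by another probe), the last by 1 of its probes only.

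Of 16 measured receptors and signal proteins, 8 were 2-fold or more higher and 4 lower by as much. In Th2 5 of 17 were higher and 5 lower, and in iTreg 7 of 16 were higher and 4 lower. The costimulatory receptor OX40 (Tnfrsf4), which promotes Il9 expression, read 12.31 in naive and 16.48 in Th9 cells (4.17 ± 0.45), and GITR (Tnfrsf18) read 13.08 in naive and 16.03 in Th9 cells (2.95 ± 0.35). The IL-2 receptor chains parted: Il2ra was higher (2.56 ± 0.32), Il2rb slightly so (1.1 ± 0.23), and the common γ chain Il2rg lower (-1.82 ± 0.26). Il4ra was lower (-1.30 ± 0.24; -0.37 by another probe), as was Jak1, the kinase both receptors use (-2.26 ± 0.29), while Jak3 lay at the limit (1.03 ± 0.23).

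The TGF-β receptor genes also parted. Tgfbr1, the signalling chain, was higher (1.44 ± 0.24), at -0.03 in Th2 and 1.17 in iTreg. Tgfbr2, the ligand-binding chain, was lower by the brightest probe and not by the other (-2.57 ± 0.31, 0.55 by another probe), so no direction is given for it. The ubiquitin ligase Traf6 and the kinase Map3k7 (TAK1) were at 1.38 and 1.04. Il9r and Il17rb were above background only in naive cells, Il1r1 in neither channel, and Il1rl1, the IL-33 receptor, was within 2-fold (-0.77 ± 0.25).

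Of 18 measured genes that restrain the Th9 programme, 4 were 2-fold or more higher and 7 lower by as much (median -0.66). Under median centring 4 were higher and 5 lower (median -0.28). In Th2 4 of 18 were higher and 7 lower, and in iTreg 5 of 19 were higher and 5 lower. Tbx21 (T-bet), the Th1 master regulator, read 10.28 in naive and 7.62 in Th9 cells (-2.66 ± 0.37), and its relative Eomes was above background only in naive cells (bound -3.24). Bcl6, the follicular helper regulator, was lower in Th9 (-1.66 ± 0.26) and Th2 (-1.45) and higher in iTreg (1.52). Tcf7 and Ets1, which maintain naive T cells, were lower (-2.27 ± 0.29, -0.96 by another probe; -1.72 ± 0.25), as were Id3 (-1.22 ± 0.23), Sirt1 (-1.1 ± 0.23) and Foxp1 (-1.1 ± 0.22). The 4 higher genes were Id1, an inhibitor of E proteins (3.68 ± 0.50), Cish, a STAT5-induced feedback inhibitor (3.27 ± 0.38), Ezh2, the Polycomb methyltransferase (3.10 ± 0.36), and Foxp3 (1.28 ± 0.24).

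**Figure D3:**
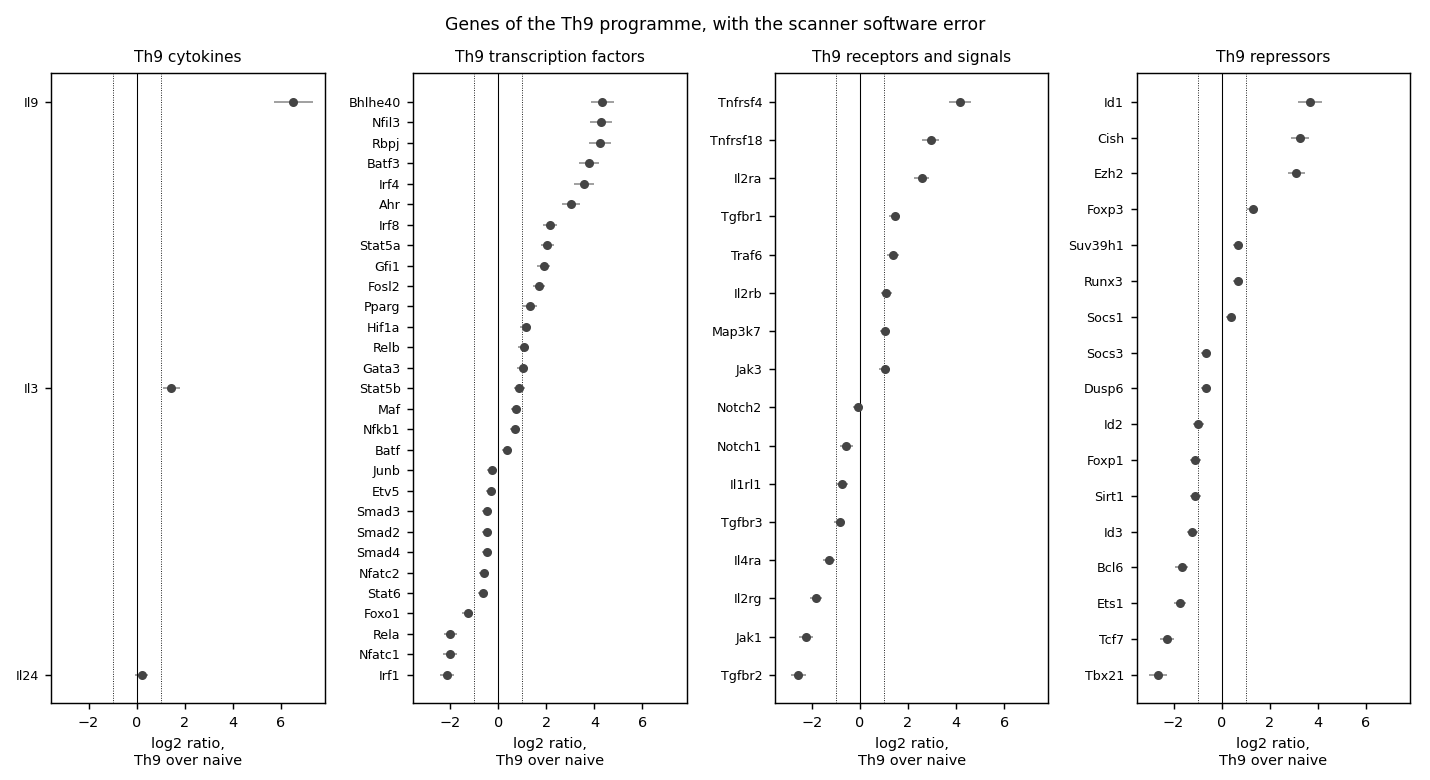
Log2 ratio of Th9 over naive with the scanner software's error for the measured members of the 4 Th9 lists (cytokines, transcription factors, receptors and signals, and repressors, of which 17 are drawn); dotted lines mark the 2-fold limits. Il9 at 6.52 stands beyond every other member drawn, and both directions occur in all lists but the cytokines.

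Genes of other helper fates were not silent in the culture. Of the Treg list, 16 of 21 measured members were at least 2-fold higher and 1 lower (median 2.50), led by Socs2 (4.60 ± 0.54), Tnfrsf9 (4.19 ± 0.46, 0.37 by another probe), Tnfrsf4 and Ctla4, an inhibitory receptor (4.18 ± 0.47). Several of these are genes of any activated T cell, and the counts were 13 higher of 20 in Th2 and 18 of 21 in iTreg. Foxp3, which defines Treg cells, read 8.96 in naive and 10.24 in Th9 cells, and its ratios of 1.28 in Th9, -0.68 in Th2 and 3.49 in iTreg set the Th9 culture between the others. Ikzf2 and Nrp1 were within 2-fold (-0.37 ± 0.21; 0.19 ± 0.28). The background share of genes at least 2-fold higher was 14.8% in Th2 and 10.2% in iTreg.

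Of the Th2 list, 10 of 14 measured members were at least 2-fold higher and 1 lower (median 1.72; 2.54 over 15 members in the Th2 culture). Plcd1 (4.28 ± 0.53), Nfil3, Crem (3.16 ± 0.37) and Cyp11a1, a steroid-making enzyme of Th2 cells (3.14 ± 0.42), led it. The Th2 cytokines were faint. Il4 read 7.20 in naive and 8.24 in Th9 cells (1.04 ± 0.27), against 5.08 in Th2, and Il5 and Il13 were above background only in the culture, at least 1.76 and 1.26 higher.

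Of 13 measured Th17 genes, 8 were 2-fold or more higher and none lower by as much (median 1.21). Besides Ahr they included Rora, a nuclear receptor of the Th17 and innate lymphoid programmes (2.75 ± 0.35), and Basp1 (2.81 ± 0.35). Il17a was higher but faint (1.21 ± 0.33), and Il22 was within 2-fold (0.16 ± 0.37).

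Of 15 measured Th1 genes 7 were at least 2-fold lower and 2 higher, and the others were within 2-fold (median -0.89). Ifng, which the medium's antibody neutralises as protein, read 10.22 in naive and 7.67 in Th9 cells (-2.55 ± 0.37). The chemokine Ccl5 (-4.15 ± 0.44), the IL-18 receptor Il18r1 (-4.08 ± 0.54) and the chemokine receptor Cxcr3 (-3.81 ± 0.49) were lower, while Lta, a TNF-family cytokine (2.96 ± 0.35), and Il12rb1 (2.55 ± 0.32, 1.48 by another probe) were higher. Of the follicular helper list, 10 of 14 were at least 2-fold lower and 1 higher (median -1.81), with Pou2af1 at -3.10 ± 0.44 and Slamf6 at -2.75 ± 0.35, -1.67 by another probe. Pdcd1 was within 2-fold (-0.25 ± 0.21) and higher in iTreg (3.22).

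Markers of other cell types were read in both channels as well. Of 19 NK cell markers on the array 18 were well above background in naive cells and 10 in Th9, 9 of the 10 measured were at least 2-fold lower (median -3.22), and their raw background-subtracted signals summed to 73783 in the naive channel and 11678 in the Th9 channel (27714 and 7386 without the brightest, Gzma). Gzma, a granule protease, read 15.89 in naive and 11.55 in Th9 cells (-4.35 ± 0.46), and Klrd1 11.78 in naive and 7.67 in Th9 cells (-4.11 ± 0.49). Of 24 myeloid markers, 21 were above background in naive cells and 10 in Th9, with sums of 76839 and 71670 (42450 and 32171 without the brightest, Siglech). Of the 10 measured, 6 were at least 2-fold lower and none higher (median -1.12, with 4 lower under median centring), and 11 more were above background only in naive cells. Mpo (-3.84 ± 0.48), Tyrobp (-3.31 ± 0.41) and S100a9 (-2.85 ± 0.36) were lower. The 6 CD8 T cell markers summed to 36691 and 5061, most of it Ccl5, which is also one of the Th1 genes; without it the sums were 3098 and 1724. The 16 B cell markers summed to 1951 and 6474, the larger sum being that of Th9. These raw sums are not normalised between the dyes, so they do not give the size of a difference between the channels. Cd3d, for example, had raw signals of 53730 in naive and 67710.5 in Th9 cells but a normalised log2 ratio of -1.11. In RNA from a mixture, fewer cells of a type and less RNA per cell cannot be told apart, and the part of other cells in the Th1, cytotoxic and myeloid values was not tested.

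Targets of the added cytokines were read as lists. Of 16 measured IL-4 and STAT6 targets, 10 were at least 2-fold higher and 3 lower (median 1.48; 1.56 in Th2 and 1.12 in iTreg, which had anti-IL-4). Of 23 IL-2 and STAT5 targets, 11 were higher and 2 lower (median 0.82; 1.45 in Th2 and 0.02 in iTreg). The STAT5-induced inhibitors Socs2 and Cish stood out by size: Socs2 read 7.66 in naive and 12.26 in Th9 cells and Cish 11.55 in naive and 14.82 in Th9 cells. Socs1 and Socs3 stayed within 2-fold (0.37 ± 0.21; -0.66 ± 0.21), and of the PIM kinases Pim2 (2.06 ± 0.29) and Pim3 (1.39 ± 0.24) were higher.

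Of 17 measured TGF-β and SMAD targets, 7 were at least 2-fold higher and 3 lower (median 0.52; -0.03 in Th2 and 0.47 in iTreg). Ldlrad4, an inhibitor of TGF-β signalling, was higher in both cultures that received TGF-β1 (1.82 ± 0.33 in Th9 and 2.64 in iTreg) and in Th2 it was not above background in the culture. Gadd45b (2.84 ± 0.34) and Id1 were higher as well, but also in Th2 (2.27; 2.78). Smad7, the feedback inhibitor of the pathway, was lower (-1.34 ± 0.24).

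The measured partners of Ahr were mostly within 2-fold, while its best-known target appeared. Cyp1a1, the cytochrome P450 that the receptor induces, was above background only in the Th9 channel, at least 2.20 higher on the log2 scale, and the receptor's repressor Ahrr likewise, by at least 0.70. On the other arrays Cyp1a1 was likewise above background only in the culture, at least 1.12 higher in Th2 and at least 0.77 in iTreg. Of 8 measured members of the aryl hydrocarbon receptor pathway 1 was at least 2-fold higher, Ahr itself, and 1 lower, Nfe2l2, a regulator of oxidative defence (-1.41 ± 0.25). Its partner Arnt (0.44 ± 0.21) and the target Tiparp, an ADP-ribosyltransferase that dampens the receptor (0.63 ± 0.21), were within 2-fold.

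Regulators of antigen receptor signalling changed in both directions. Of 17 negative regulators of MAP kinases 6 were higher and 5 lower. Dusp4 read 7.72 in naive and 13.95 in Th9 cells, Dusp14 6.77 in naive and 11.18 in Th9 cells (4.41 ± 0.59) and Dusp16 7.15 in naive and 9.69 in Th9 cells (2.55 ± 0.38), whereas Dusp2, an immediate early phosphatase, was lower (-2.82 ± 0.33). Dusp6 stayed within 2-fold (-0.66 ± 0.21). Of 20 immediate early and AP-1 genes 6 were higher and 6 lower. Fos (-3.04 ± 0.38) and Jun (-2.15 ± 0.29) were lower, and Atf3 (3.54 ± 0.51), Maff (3.07 ± 0.40) and Nr4a2 (3.06 ± 0.37) higher.

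Costimulatory and inhibitory receptors split in the same way, 8 of 28 higher and 9 lower (8 and 7 under median centring). Beside OX40 and CTLA-4, Lag3, a receptor for class II molecules, was higher (3.46 ± 0.43). Slamf6, Vsir (-2.34 ± 0.31), Cd96 (-2.10 ± 0.29) and Cd27 (-1.74 ± 0.27) were lower. Of 27 NF-κB pathway genes 5 were higher (18.5%), with Cd83 (4.47 ± 0.49) and Nfkb2 (2.02 ± 0.28) in front, and 6 lower (22.2%). These shares were near those over all genes (15.5% and 15.6%). Under median centring the counts were 8 and 6.

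The T cell receptor complex and its proximal signalling read lower as a group, 19 of 39 by at least 2-fold and 1 higher (median -0.81), but under median centring the counts were 8 and 1. Txk (-3.06 ± 0.36) and Prkcq (-2.21 ± 0.29), kinases of the proximal pathway, were among the lowest. Malt1, a paracaspase of the NF-κB branch, was higher (1.15 ± 0.23).

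The genes that mark the naive state were mainly lower. Of 31 measured surface and signalling genes 25 were at least 2-fold lower and none higher (median -1.90), and of 23 transcription factors 14 were lower and 1 higher (median -1.28). Il7r, the IL-7 receptor on which naive cells depend, read 13.72 in naive and 9.11 in Th9 cells (-4.61 ± 0.51). Klf2, which maintains quiescence, read 15.31 in naive and 11.48 in Th9 cells (-3.83 ± 0.41). Lef1 (-2.46 ± 0.30), Tox (-2.43 ± 0.32) and Klf3 (-2.47 ± 0.31) were lower too. Ccr7, the lymph node homing receptor, was within 2-fold (-0.22 ± 0.21, and 1.14 under median centring).

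Of the GIMAP family, GTPases that support survival of resting lymphocytes, 7 of 8 were at least 2-fold lower, from -1.38 (Gimap5) to -3.26 (Gimap8), and Gimap7 was within 2-fold (0.15 ± 0.20). Under median centring 3 of the 8 stayed beyond the limit. The homing and adhesion genes Itga4 (-2.80 ± 0.34) and Icam2 (-3.50 ± 0.38) were lower, and Cd44 (3.17 ± 0.36, 0.56 by another probe) and Alcam (2.53 ± 0.43) higher. Among chemokine receptors Ccr8 (2.93 ± 0.40), Ccr4 (2.14 ± 0.31) and Ccr6 (1.64 ± 0.26) were higher and Cxcr3, Gpr183 (-3.07 ± 0.45), Cxcr6 (-2.96 ± 0.39) and Ccr9 (-2.61 ± 0.43) lower.

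The interferon-stimulated genes had more members at least 2-fold lower than any other of the 79 lists. By share (89.5% of those measured) they were not set apart. NK cell markers had 90%, GIMAP genes 87.5% and naive state surface and signalling genes 80.6%. Of 38 measured members 34 were at least 2-fold lower and none higher (median -2.42), against 15.6% of all genes lower, and 13 more were above background only in naive cells. Median centring left 32 of the 38. In the other cultures 30 of 44 (Th2, median -1.53) and 27 of 44 (iTreg, median -1.38) were lower, with background shares of 14.5% and 8.15%. All cultures had received an antibody against IFN-γ and all had been stimulated, and the part of either in these values was not tested.

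Slfn8, a Schlafen protein that limits T cell proliferation, read 12.10 in naive and 6.89 in Th9 cells. Ifi204, a DNA sensor of the Ifi200 family, read 12.52 in naive and 7.86 in Th9 cells (-4.66 ± 0.54), and Oas1a, which makes the messenger that activates RNase L, read 11.39 in naive and 7.0 in Th9 cells (-4.39 ± 0.59, -2.11 by another probe). Isg15, a ubiquitin-like modifier, read 13.46 in naive and 10.78 in Th9 cells (-2.68 ± 0.33). All of these were several times lower in Th9 than in naive cells, whereas Dhx58 (0.04 ± 0.21), Tap1 (-0.25 ± 0.21) and Stat2 (-0.37 ± 0.21) stayed within 2-fold. The guanylate-binding proteins Gbp4 (-4.65 ± 0.58) and Gbp2 (-2.54 ± 0.32) were lower than in Th2 (-2.72; -0.41) and iTreg (-2.83; -1.08).

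The promoters of Slfn8 and Oas1a are shown because both hold the interferon-stimulated response element (GAAA and GAAA with any 2 bases between, capitals, on either strand; in Oas1a 2 copies overlap). The element was found in 42.6% of 47 RefSeq promoters of the listed interferon genes in 11.8% of 17 of the MHC class I list, 11.4% of 44 of the ribosomal protein list and 2.98% of all. The 150 bases nearest the start are printed, at chr11:83020811-83020960 and chr5:120907526-120907675 of GRCm38.p6, both on the minus strand.
Slfn8: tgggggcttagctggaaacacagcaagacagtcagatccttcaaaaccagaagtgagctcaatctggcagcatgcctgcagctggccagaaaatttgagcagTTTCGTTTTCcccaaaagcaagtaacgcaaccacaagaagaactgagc
Oas1a: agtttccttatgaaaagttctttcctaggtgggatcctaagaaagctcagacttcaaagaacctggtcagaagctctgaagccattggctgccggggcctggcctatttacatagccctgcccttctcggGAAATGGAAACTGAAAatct

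**Figure D4:**
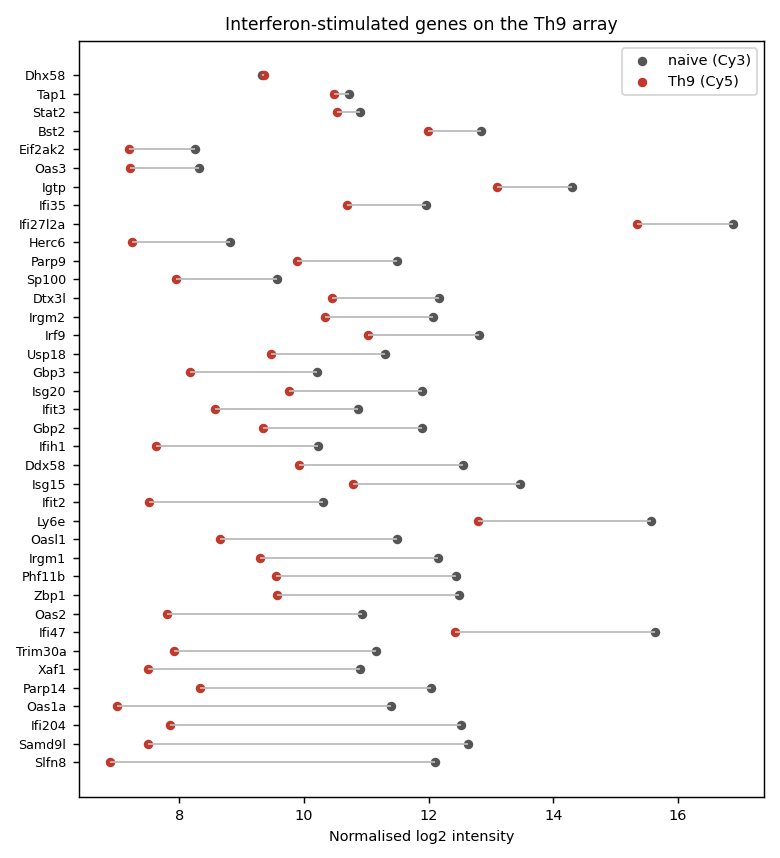
Normalised log2 intensity of the 38 measured interferon-stimulated genes in the naive channel (grey) and the Th9 channel (red), each pair joined by a line and ordered by the ratio. The Th9 reading lies left of the naive reading in all but Dhx58, and the gap is widest for Slfn8.

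The measured antigen presentation genes went mainly opposite ways by class. Of 18 measured class I genes 12 were at least 2-fold lower and 1 higher (median -1.86; 7 lower and a median of -0.86 under median centring). Nlrc5, the transactivator of class I genes, read 13.05 in naive and 8.92 in Th9 cells (-4.13 ± 0.46), H2-K1 had -2.63 ± 0.32 and Cd1d1 -4.50 ± 0.54. Of 9 measured class II genes 6 were higher and 2 lower (median 2.54). Of the others, H2-DMb2 was above background only in Th9 (at least 1.04 higher). H2-Aa and Ciita were above background only in naive cells, with bounds that left less than a 2-fold difference (-0.09 and -0.35). H2-Ab1 read 11.07 in naive and 14.39 in Th9 cells (3.32 ± 0.38), Cd74, the invariant chain, 9.21 in naive and 12.14 in Th9 cells (2.92 ± 0.35) and H2-DMb1 7.52 in naive and 10.93 in Th9 cells (3.41 ± 0.44). Class II ratios were as large in Th2 (median 2.55) and lower in iTreg (1.93). Of 4 measured B cell markers, Fcmr (4.09 ± 0.53) and Cd79b (2.03 ± 0.29) were higher and none lower (median 1.38). Cd79a and Ms4a1 were not above background. The part of other cells in the class II values was not tested.

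Cell division genes were higher in the culture. Of 45 measured mitosis genes 41 were at least 2-fold higher and none lower (median 3.20; 3.05 in Th2 and 1.63 in iTreg). Ube2c, the ubiquitin-conjugating enzyme of the anaphase-promoting complex, read 9.65 in naive and 13.75 in Th9 cells (4.10 ± 0.45), Nusap1, a spindle protein, 8.27 in naive and 12.38 in Th9 cells (4.10 ± 0.46), and the checkpoint kinase Bub1 6.95 in naive and 10.91 in Th9 cells (3.97 ± 0.53). Tpx2 had 4.12 ± 0.48, 0.74 by another probe. Of 44 replication genes 22 were higher and none lower (median 0.97), with Gins2 at 3.21 ± 0.41 and Chaf1a at 2.91 ± 0.37. Mcm2 was within 2-fold (-0.01 ± 0.20, 0.16 under median centring). Of 34 repair genes 11 were higher (32.4%, beside 15.5% of all genes). Of the same list 4 were lower (11.8%, beside 15.6% of all genes), among them Atm (-1.50 ± 0.27) and Prkdc (-1.49 ± 0.28).

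The promoters of Ube2c and Cdca5, a cohesin regulator, are shown for the cell cycle homology region (TTTGAA, capitals, either strand), which is known from genes expressed late in the cycle. It was found in 40% of 45 promoters of the mitosis list, 27.7% of the interferon list and 16% of all. The CCAAT box (CCAAT) was in 73.3% of the mitosis promoters and 33.8% of all, and also in 82.4% of those of the MHC class I list and 60.6% of the cholesterol list. The 150 bases nearest the start are printed, at chr2:164769779-164769928 and chr19:6084947-6085096, both on the plus strand of GRCm38.p6.
Ube2c: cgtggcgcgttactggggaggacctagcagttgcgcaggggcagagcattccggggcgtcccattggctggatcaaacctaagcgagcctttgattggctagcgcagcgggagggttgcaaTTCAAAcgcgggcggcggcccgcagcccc
Cdca5: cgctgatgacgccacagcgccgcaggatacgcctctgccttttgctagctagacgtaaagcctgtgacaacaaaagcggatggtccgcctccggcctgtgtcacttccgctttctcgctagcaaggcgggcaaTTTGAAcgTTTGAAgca

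Glucose use and the hypoxia response were among the groups with the largest ratios. Of 31 glycolysis genes 21 were at least 2-fold higher and none lower (median 1.86), and of 27 hypoxia genes 19 were higher and 1 lower (median 1.94). Tpi1, triosephosphate isomerase, read 11.59 in naive and 16.43 in Th9 cells (4.84 ± 0.52), the lactate exporter Slc16a3 9.34 in naive and 14.12 in Th9 cells (4.78 ± 0.52) and hexokinase Hk2 7.64 in naive and 12.02 in Th9 cells (4.38 ± 0.51). Egln3 read 7.26 in naive and 13.30 in Th9 cells, and Bnip3, a mitophagy receptor, 10.38 in naive and 15.16 in Th9 cells (4.79 ± 0.51). Egln2, a sister of Egln3, was lower by 1 probe (-1.27 ± 0.23; -0.26 by the other). These genes were high in all cultures: the median of the glycolysis list was 1.71 in Th2 and 1.66 in iTreg, and of the hypoxia list 1.81 and 1.22.

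The promoters of Egln3 and Ak4 are shown for the hypoxia response element (ACGTG, capitals; in Ak4 copies on both strands overlap). It was found in 50% of 36 promoters of the hypoxia list, 38.5% of 52 of the glycolysis list and 16.6% of all. Lists of other functions had shares near that of glycolysis, 35.3% for tRNA synthetases, 35.3% for MHC class I and 34.1% for ribosomal proteins, and the share was 22% among genes within 2-fold. The sequences are printed from just before the element to the start, at chr12:54203875-54204108 on the minus strand and chr4:101419484-101419702 on the plus strand of GRCm38.p6.
Egln3: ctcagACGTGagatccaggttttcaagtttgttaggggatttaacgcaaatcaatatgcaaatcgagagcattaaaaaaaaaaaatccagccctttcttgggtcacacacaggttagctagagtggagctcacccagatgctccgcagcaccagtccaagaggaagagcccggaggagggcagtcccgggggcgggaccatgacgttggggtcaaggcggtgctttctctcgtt
Ak4: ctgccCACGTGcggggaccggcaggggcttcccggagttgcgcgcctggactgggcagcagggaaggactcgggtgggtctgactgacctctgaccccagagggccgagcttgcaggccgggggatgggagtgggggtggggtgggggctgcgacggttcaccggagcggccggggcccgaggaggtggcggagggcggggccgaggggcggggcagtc

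Lipid genes were higher in part. Of 31 genes of cholesterol synthesis and uptake 20 were at least 2-fold higher and 3 lower (median 1.94). Stard4, a sterol carrier, had 3.47 ± 0.40 and squalene epoxidase (Sqle) 2.60 ± 0.32, while Mylip, which degrades the LDL receptor, was lower (-3.12 ± 0.38), and so was the cholesterol exporter Abcg1 (-1.14 ± 0.23). The desaturases Scd1 and Scd2 read 7.21 in naive and 11.95 in Th9 cells (4.74 ± 0.57) and 10.89 in naive and 15.50 in Th9 cells (4.61 ± 0.50), within a fatty acid list of which 12 of 34 were higher and 1 lower. Fabp5, a fatty acid carrier, had 3.71 ± 0.41.

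The lists of amino acid supply differed from each other. Of 23 genes of the ATF4 response and amino acid synthesis 16 were higher and 1 lower (median 1.25), and 5 more were above background only in Th9. Asns read 7.51 in naive and 13.64 in Th9 cells, the stress regulator Nupr1 6.90 in naive and 11.65 in Th9 cells (4.75 ± 0.64) and the translation inhibitor Eif4ebp1 10.32 in naive and 14.29 in Th9 cells (3.97 ± 0.44). In iTreg 6 of 21 were higher (median 0.66). Of 22 aminoacyl tRNA synthetases 6 were higher and 1 lower (median 0.82), and 14 and none under median centring. Of 18 amino acid transporters 5 were higher, led by Slc43a3 (2.97 ± 0.38), and 1 lower, and the median was -0.03. In Th2 4 of 18 transporters were higher and in iTreg 4 of 17.

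The promoters of Asns and Nupr1 are shown for the ATF4 element (TGATGNAAN, capitals, either strand). It was found in 13.3% of 30 promoters of the ATF4 list, 17.6% of 17 of the tRNA synthetase list, 9.09% of 33 of the cholesterol list and 3.44% of all. The 150 bases nearest the start are printed, at chr6:7693210-7693359 and chr7:126625471-126625620, both on the minus strand of GRCm38.p6.
Asns: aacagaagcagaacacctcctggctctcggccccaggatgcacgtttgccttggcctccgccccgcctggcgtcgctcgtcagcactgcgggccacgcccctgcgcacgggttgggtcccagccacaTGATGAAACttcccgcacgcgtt
Nupr1: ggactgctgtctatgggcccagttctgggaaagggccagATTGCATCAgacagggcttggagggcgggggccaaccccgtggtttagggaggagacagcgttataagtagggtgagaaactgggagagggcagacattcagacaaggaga

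The further motifs searched were a STAT5 element (TTCNNNGAA), a GATA site (AGATAA), a xenobiotic response element (GCGTG), which AHR binds, an E2F site (TTTGGCGC), a sterol response element (TCACNCCAC) and an NFAT core (GGAAAA). The E2F site was found in 6.52% of 46 promoters of the replication list, 11.8% of 17 of the MHC class I list and 0.417% of all, and the sterol response element in 3.03% of 33 promoters of the cholesterol list, 3.85% of 52 of the glycolysis list and 1.05% of all. Over the genes at least 2-fold higher in Th9, the STAT6 element was found in 4.39% of promoters, the STAT5 element in 6.35%, the GATA site in 6.58%, the xenobiotic response element in 46.8% and the NFAT core in 18.2%. Among the genes within 2-fold, the shares were 4.61%, 5.72%, 6.17%, 44.9% and 18.1%, so the higher genes as a whole differed little in these letters.

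For ribosomal, respiratory and cytoskeletal genes the answer depended on the normalisation. Of 48 ribosomal protein genes none was at least 2-fold higher and 1 lower (median 0.13), but under median centring 45 were higher and none lower (median 1.71). Rps27 had -1.18 ± 0.23, and 0.52 under median centring, and Rps2 1.0 ± 0.22 and 2.50. Of 47 oxidative phosphorylation genes 2 were higher and none lower (median 0.24), against 25 higher and a median of 1.03 under median centring. For the actin, tubulin and septin genes (42 measured) 6 were higher and 13 lower by loess, and 13 higher and 3 lower by median centring. No direction is given for these groups. Ribosome biogenesis factors were lower in 16 of 51 and higher in 2 (9 and 6 under median centring), with Heatr1 at -1.90 ± 0.27 and Bop1 at -1.72 ± 0.27.

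Of 28 measured heat shock genes 4 were higher and 7 lower, but 12 were higher and 6 lower under median centring, so no direction is given for the list. Ahsa1 (-2.69 ± 0.32), Hsph1 (-2.64 ± 0.32), Dnajb1 (-2.43 ± 0.30) and Dnaja1 (-2.39 ± 0.30), co-chaperones of HSP90 and HSP70, were lower, and Hsf2 (2.25 ± 0.31) and the chaperonin subunit Tcp1 (1.96 ± 0.28) higher. Of 32 genes of the unfolded protein response 9 were higher, among them the oxidase Ero1a (4.77 ± 0.56) and Ddit3 (CHOP; 1.96 ± 0.28), and 1 lower. Of 15 BCL-2 family genes 4 were higher, including Bcl2l1, encoding BCL-xL (2.58 ± 0.32), and Pmaip1, encoding NOXA (2.75 ± 0.36). Mcl1 was lower (-1.30 ± 0.23) by loess only. Under median centring 4 of the family were higher and none lower.

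Set beside the other cultures, the Th9 culture differed from Th2 in fewer genes than from iTreg. The iTreg culture also had fewer genes at least 2-fold from naive in either direction (18.4%, beside 31.1% in Th9 and 29.3% in Th2). The part of this weaker response in the counts that follow was not tested. A Th9 ratio at least 2-fold above the Th2 ratio was found for 134 of 10459 genes measured on both arrays (1.28%) and at least 2-fold below for 144 (1.38%), whereas against iTreg the counts were 659 (6.29%) and 713 (6.8%) of 10480. These differences rest on the naive channels of separate arrays; whether these held 1 RNA extract is not given in the sources used here. Genes at least 2-fold above naive and at least 2-fold above both other cultures numbered 28 of 10349 (0.271%), and those below naive and both others 31 (0.3%).

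On the high side, among the 10349 genes with a ratio on all 3 arrays, Ahr lay farthest beyond both, 2.67 ± 0.44 (log2) from its ratio in Th2 and 1.90 ± 0.45 from that in iTreg. Serpinc1, which encodes antithrombin, read 6.71 in naive and 10.98 in Th9 cells (4.26 ± 0.57), with 1.77 in Th2 and 2.58 in iTreg. The naive readings of Serpinc1 and Dusp14 lay near the lowest called well above background on the Th9 array (6.53). The sizes of their ratios therefore depend on the background treatment. Hsf2, a heat shock factor, read 8.56 in naive and 10.80 in Th9 cells, 1.79 ± 0.37 (log2) from its ratio in Th2 and 1.64 ± 0.38 from that in iTreg. Dusp14 (4.41 against 2.62 in Th2 and 2.88 in iTreg) and Socs2 (4.60 against 3.27 and 2.21) were high in all cultures and highest in Th9. Ctla2b, a cysteine protease inhibitor of activated T cells, followed the same order (4.76, 3.43 and 2.58). Actr3b, Pamr1 and Cpox, an enzyme of haem synthesis, were more than 2-fold above naive in Th9 (1.84, 1.76 and 1.67) and within 2-fold of naive in both others. Tmem176b was higher in Th9 (1.08 ± 0.23) and below naive, within 2-fold, in Th2 (-0.89) and iTreg (-0.53).

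On the low side stood several interferon-induced genes and Il7r. Tmem140 was lower in Th9 (-1.83 ± 0.32) and within 2-fold in Th2 (0.63) and iTreg (0.30). Gbp4, Gbp2, Trim30a (-3.23 ± 0.41), Phf11b (-2.90 ± 0.35) and Ifi27 (-2.62 ± 0.31) were lower than in either, -1.66 ± 0.48 (log2) from its ratio in Th2 and -2.48 ± 0.46 from that in iTreg for Trim30a. Il7r was at -4.61 in Th9, -3.10 in Th2 and -2.83 in iTreg. Gsdmd, which forms pores in pyroptosis, was at -2.75, -1.19 and -1.38. Ccl4, a chemokine, was lower in Th9 (-1.16 ± 0.24), 0.53 in Th2 and higher in iTreg (1.18).

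**Figure D5:**
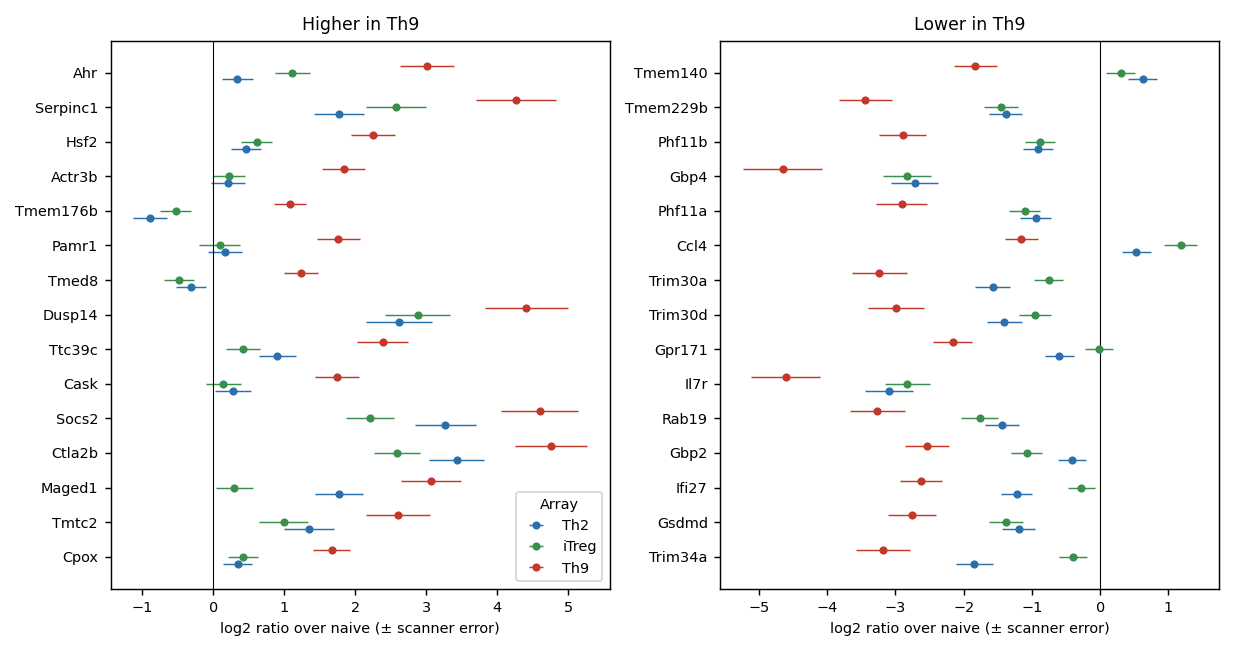
Log2 ratio over naive on the Th9 (red), Th2 (blue) and iTreg (green) arrays, with the scanner software's error, for the 15 genes in each direction that lay farthest beyond both other cultures. The genes were chosen for this separation; Ahr heads the left panel with 3.01 in Th9, 0.34 in Th2 and 1.11 in iTreg.

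Genes that the added cytokines are known to divide took intermediate or shared places. Nt5e, which encodes the ectoenzyme CD73, was higher in Th9 (2.50 ± 0.31) and iTreg (3.24), which received TGF-β1, and lower in Th2 (-1.22), which did not. Ccr6 followed the same pattern (1.64, 4.78 and -2.11), and Cd38, another ectoenzyme, was higher in both that received TGF-β1 and within 2-fold in Th2 (2.13, 2.94 and -0.21). Batf3 (3.78 in Th9 and 3.69 in Th2 against 0.33 in iTreg), Plcd1 (4.28 and 4.49 against 0.20) and Tgm2 (5.20 and 5.71 against 1.90) were similar in both cultures that received IL-4. Ly6a, a surface antigen also called Sca-1, was lower in Th9 (-4.15 ± 0.47) and iTreg (-3.58) and within 2-fold in Th2 (-0.28). IL-2 dose, IFN-γ antibody dose and the other additions differed along with these, so the effect of 1 cytokine cannot be told apart.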

How the data were processed

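RNA of 1 Th9, 1 Th2 and 1 iTreg culture was hybridised, each with naive RNA, to 1 array per culture, so n = 1 per group and the number of arrays limits the precision; no replicates, p-values or paired samples exist. Per the file headers, the deposited scanner files give, for each channel of a spot, its median intensity and that of the background, read by version 11.0.1.1 of Agilent Feature Extraction (version 9.3.2.1 per the submitters' processing notes). The files also hold, per the file headers, a processed intensity and a log10 ratio with its log10 error. The authors' deposited series values were found to be log2 ratios of the processed intensities, shifted by a constant (0.0206 for Th9; 99.3% of probes within 0.001).

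From these, median intensities were background-corrected (normexp, offset 50) and loess-normalised within the array with limma 3.58.1 in R 4.3.3, with control and outlier spots given no weight. Outlier spots were dropped and spots of a probe averaged (Python 3.11.15, pandas 2.3.3). Of 39429 probes 66.1% matched a mouse gene of GRCm38.p6 by RefSeq accession; the array is older, so array coordinates are not used. A gene with several probes was read from the brightest, and where another probe differed by over 2-fold both values are given; this held for 399 of 2519 genes with another measured probe. A bound ("at least") sets the channel above background against the lowest signal well above background in the other. Differences between cultures carry the root of the summed squared errors.

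The 79 gene lists (1850 of 1878 genes matched) and the genes were chosen from general knowledge with earlier results of these data known, and lists are described by counts and medians, with no test. Some items are not reported here. Named were, apart from these, all Th9 list members, the 4 highest and 4 lowest of other lists, the 20 highest and lowest genes, the 10 highest bounds in each direction and the 15 genes in each direction farthest beyond both cultures. Il4, Il5, Il13, Il17a, Cyp1a1, Ahrr, Isg15, the CD3 genes, Cd4, Cd8a, Cd79a and Ms4a1 were added after their values were seen. Motifs were searched by exact letters in the 250 bases before the start. Alternatives tried were median centring, the software's log ratio, no background correction, offset 0, no filter on dim probes, the mean over probes and the deposited values. The size rule was checked on simulated data.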

Additional observations from a re-analysis of the deposited data

Results flagged for a closer look

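With 1 array per culture, 4 genes were at least 2-fold from naive in opposite directions in Th9 and Th2, and 10 in Th9 and iTreg. The difference between the cultures was not tested for any of them, since each rests on 1 array per culture; values are log2 ratios over naive.

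Opposite to Th2, Apol9b was 1.24 in Th9 and -1.41 in Th2, a difference of 2.65 ± 0.39 (scanner errors combined). Ccr6 was 1.64 against -2.11, and Nt5e 2.50 against -1.22. Casp4, an inflammatory caspase, was -1.04 in Th9 and 1.95 in Th2. The Apol9b probe may bind its close relative Apol9a, which was not tested.

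Opposite to iTreg, Bcl6 was -1.66 in Th9 and 1.52 in iTreg, and Cxcr5, a chemokine receptor of follicular helper cells, -1.87 and 1.78. H2-Eb2 was -1.54 and 2.02, Smpdl3a -2.59 and 1.11, and Dtx4 -1.55 and 1.16. Art4 was -1.44 and 1.12, Spin2c -1.30 and 1.42, Ccl4 -1.16 and 1.18, and Arl5c -1.0 and 1.08. Lmna, which encodes lamin A, went the other way, 2.27 in Th9 and -1.04 in iTreg.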

How the results depend on the processing

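No paired analysis was possible because each culture has 1 array. The counts of genes at least 2-fold higher and lower stayed within 1.5 times 1673 and 1684 under all 7 alternatives, from 1636 (mean over probes) to 2313 (median centring) higher and from 1232 (median centring) to 2086 (software log ratio) lower. Genes at least 2-fold above naive and both cultures numbered 57 in place of 28 when all probes were kept, and those below numbered 47 with the software's log ratio and 49 with the deposited values in place of 31. Median centring moved the median of all genes from -0.014 to 0.162. It turned the sign of 17 called genes, of which Rps27 (-1.18 to 0.52) and Cd3d (-1.11 to 0.14) are named above, and of 35 named genes within 2-fold; of the other alternatives, the mean over probes turned 10 called genes and the others none, and the cause was not tested. Median centring moved the medians of 43 of 77 lists by more than the median scanner error of their members. The medians of 9 lists, all under 2-fold, changed sign, among them the actin, tubulin and septin genes (-0.44 to 0.41), the proteasome (-0.11 to 0.67), RGS and G protein signalling (-0.32 to 0.13) and the lysosome (-0.21 to 0.13). Values near background, those of Il9, Serpinc1, Dusp14 and Ak4 in naive cells among them, depend most on the background treatment.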

Other observations

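Probes without a gene match were left out of the counts. Of these, 4287 were well above background in both channels, 563 at least 2-fold higher in Th9 and 515 at least 2-fold lower.

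A few gene groups not described above also had large values. Of 16 measured growth factors and secreted proteins, 9 were at least 2-fold higher and 1 lower (median 2.01), and 11 more were above background only in Th9; the thyroglobulin gene Tg (5.56 ± 0.65) and Lama5, a laminin chain (4.23 ± 0.53), led it. Of 26 genes of iron and haem handling 6 were higher and 1 lower, with the transferrin receptor Tfrc at 3.87 ± 0.45 and Uros at -2.89 ± 0.38. S100a4 (-4.44 ± 0.50) and S100a6 (-3.76 ± 0.43) were lower, while Lgals3 (3.72 ± 0.41), Anxa4 (3.70 ± 0.47) and Anxa2 (2.70 ± 0.33) were higher, within a list of S100, galectin and annexin genes split 6 higher and 7 lower of 20 (9 and 5 under median centring). Mat2a, which makes the methyl donor S-adenosylmethionine, was lower by both its probes (-4.07 ± 0.44 and -2.63), and Odc1, the first enzyme of polyamine synthesis, higher (2.74 ± 0.33).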
